A study of Homo sapiens with 8 samples.

Results

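The genes described here encode the enzymes of the Golgi apparatus that trim, branch, extend and cap the sugar chains of glycoproteins, together with the enzymes that make sialic acid and the transporters that bring activated sugars into the Golgi. They are 44 genes listed by name in 9 groups by role, and earlier results of these data were known when the list was made. A gene was counted as measured if a probe set annotated to it alone reached a signal of 500 on at least 1 of 8 arrays, and 34 of the 44 genes were measured, of 8961 genes measured in all. The mRNA came from BOKU and SKG-I, established cervical cancer cell lines. Each line was transfected with an siRNA against IGF2R (siIGF2R) or a control siRNA (siCtrl), and RNA was taken 72 h later. The 4 groups were therefore siIGF2R in BOKU, siCtrl in BOKU, siIGF2R in SKG-I and siCtrl in SKG-I, and each was 1 RNA sample hybridized to 2 arrays. The sources do not name which siRNA against IGF2R was put on the arrays. With 1 siIGF2R group per line, effects of losing IGF2R and other effects of the siRNA cannot be told apart here.

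As background, most proteins that pass through the secretory pathway carry N-glycans, linked to asparagine, or O-glycans, linked to serine or threonine. An N-glycan reaches the Golgi rich in mannose, is trimmed by mannosidases, gains branches from the GlcNAc-transferases of the MGAT family, and is then extended with galactose and capped with fucose or sialic acid. O-glycans of the mucin type are started by a GALNT enzyme and built up by others. Sialic acid is made in the cytosol, activated in the nucleus by CMAS to CMP-sialic acid, and carried into the Golgi by SLC35A1. IGF2R is the cation-independent mannose 6-phosphate receptor, which carries newly made lysosomal enzymes from the Golgi to endosomes by a tag on their N-glycans.

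Each value is a MAS5 signal, the summary of the probes for a transcript on a linear scale that the authors scaled to a common level per array. The change was the difference of mean log2 signals of duplicate arrays, siIGF2R minus siCtrl, and was tested over both lines by limma with the line as a block. Duplicate arrays carried the same RNA, so the 2 lines were the replicates and the p values rest on 4 RNA samples. Within a line, and between the lines, 1 RNA sample stood against 1, so those differences are given without a test and are counted where they reached 2-fold. The log2 signals of duplicates differed with an SD of 0.27 to 0.35 over all measured probe sets and correlated with r of 0.984 to 0.989, and array medians lay between 65.0 and 74.6. IGF2R fell in both lines, with signals of 641 and 645 on the siIGF2R arrays against 7288 and 6710 on the siCtrl arrays of BOKU, and of 257 and 295 against 4120 and 3838 in SKG-I (adjusted p = 0.0221, limma). The keratins KRT8, KRT18 and KRT19, which mark simple epithelium, were at 1939 or more on all arrays, whereas CDH1 and EPCAM, also epithelial, were at 50.8 or less in BOKU, and KRT5 and KRT14 were at 45.9 or less in both lines. In SKG-I, KRT19 had 1968 and 1939 with siIGF2R against 7024 and 7222 with siCtrl, and CDH1 had 619 and 652 against 143 and 173. The summed signal of the 7 epithelial markers with a probe set was 31399 to 36708 with siIGF2R against 41595 to 43770 with siCtrl in BOKU, and 28285 to 28933 against 37337 to 37737 in SKG-I. None of the 4 leukocyte and 4 endothelial markers with a probe set was measured, and COL1A1 and COL3A1 were the measured fibroblast markers of 6, with COL3A1 at 27.8 or less in BOKU and 1380 to 2013 in SKG-I. The summed signal of the 6 fibroblast markers was 1428 to 1750 with siIGF2R and 1549 to 1624 with siCtrl in BOKU, and 5992 to 6248 and 7974 to 8043 in SKG-I, and the part of these markers in the results below was not tested.

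CMAS and MGAT5 fell and B3GNT5 rose, each by over 2-fold in both lines. Of the 34 measured members, 1 rose and 2 fell at an adjusted p under 0.05, where 2.63% of all 8961 genes rose and 2.37% fell. Members that were at least 2-fold higher in both lines numbered 2 of 34 (all genes, 3.18%), and 3 of 34 were at least 2-fold lower in both (all genes, 2.34%). Of the 2 higher members, MGAT4A had signals under 100 on all BOKU arrays. With so few members called, their shares were not set apart from those of all genes by any test. The median change over both lines was 0.21 on the log2 scale for the members and 0.01 for all genes, and the median size of change was 0.39 in BOKU and 0.41 in SKG-I for the members, against 0.37 and 0.39 for all genes.

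The promoters of the 3 called genes are shown because these genes carry the main result, as the 250 bases before the start site in RefSeq (GRCh38.p14), with each GC box, the letters GGGCGG on either strand, in capitals. The table lists 2 starts for MGAT5, of which the upstream one is shown, and 1 each for CMAS and B3GNT5.
CMAS, chr12:22045968-22046217, plus strand: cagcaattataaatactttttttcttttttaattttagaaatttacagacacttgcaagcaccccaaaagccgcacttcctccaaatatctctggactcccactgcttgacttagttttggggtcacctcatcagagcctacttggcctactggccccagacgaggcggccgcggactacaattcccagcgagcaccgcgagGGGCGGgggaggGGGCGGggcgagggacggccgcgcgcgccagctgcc
MGAT5, chr2:134119685-134119934, plus strand: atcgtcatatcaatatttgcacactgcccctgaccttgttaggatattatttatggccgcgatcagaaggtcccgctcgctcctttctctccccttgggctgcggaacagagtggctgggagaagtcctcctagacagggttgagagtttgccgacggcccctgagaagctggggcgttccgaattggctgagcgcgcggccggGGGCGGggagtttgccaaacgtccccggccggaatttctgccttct
B3GNT5, chr3:183253003-183253252, plus strand: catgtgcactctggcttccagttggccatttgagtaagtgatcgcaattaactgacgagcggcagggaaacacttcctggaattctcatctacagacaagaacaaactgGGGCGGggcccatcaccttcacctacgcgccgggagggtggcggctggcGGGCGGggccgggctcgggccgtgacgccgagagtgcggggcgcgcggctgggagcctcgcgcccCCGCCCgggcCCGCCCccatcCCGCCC
GC boxes numbered 2 in CMAS, 1 in MGAT5 and 5 in B3GNT5, and the window at the other MGAT5 start held none. A promoter was listed for 37 of the 44 members, 70 windows in all, and a GC box was in 62.9% of these windows, against 42.6% of all 35116 windows in the table. The CCAAT box, the letters CCAAT, was in 32.9% of the members' windows and 32% of all, and occurred in that of MGAT5. The TATA box, searched as TATAAA, was in 1.43% of the members' windows, that of CMAS alone, and in 10.7% of all. In CMAS these letters lay near the end of the window farthest from the start site. The search did not ask where in a window a motif lay. The letters CACGTG, the E-box type bound by TFEB and MYC, were in 2.86% of the members' windows and 6.34% of all, and the cyclic AMP response element TGACGTCA was in 2.86% and 1.65%. All motifs were searched on both strands, and no motif contains another. The called genes had neither of the last motifs in these windows.

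Sialic acid synthesis was represented by 3 measured genes, of which 1 fell. CMAS, which couples sialic acid to CMP and so makes the donor that all sialyltransferases use, had signals of 322 and 334 on the siIGF2R arrays of BOKU, against 1404 and 1490 on its siCtrl arrays. In SKG-I the signals were 324 and 243 with siIGF2R, against 1137 and 1036 with siCtrl. All siIGF2R arrays lay below all siCtrl arrays in both lines, and the mean with siIGF2R was 22.7% of that with siCtrl in BOKU and 25.8% in SKG-I. CMAS had a log2 fold change of −2.05 over both lines (SE 0.23, n = 2 lines, adjusted p = 0.0221, limma). RNA was taken from whole cultures, so fewer cells that express a gene and less mRNA per cell cannot be told apart, here and below. Its other probe set stayed under the signal minimum, at 189 or less, with differences of 0.25 and 0.72 in BOKU and SKG-I. The enzymes before CMAS in the route were not called. NANS, which joins N-acetylmannosamine 6-phosphate to phosphoenolpyruvate, had differences of −0.11 in BOKU and 0.08 in SKG-I. GNE, the bifunctional enzyme that starts the route and sets its pace, had signals of 2275 and 2176 with siIGF2R against 1451 and 1439 with siCtrl in BOKU, a difference of 0.62, while its signals in SKG-I were at 66.3 or less on every array. CMAS and MGAT5 are also among the genes that the study selected as changed on these same arrays, so their direction is not independent evidence. The paper also measured genes of its Golgi vesicle transport set by quantitative RT-PCR after knockdown of IGF2R. Whether the siRNAs of that assay include the siRNA put on the arrays is not stated. The paper's primer list for that assay includes CMAS and MGAT5. Those measurements are separate from the arrays and were not used here.

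Of the branching enzymes of N-glycans, 5 of 6 were measured and 1 fell. MGAT5 makes the branch that carries long lactosamine chains and is a ligand for galectins, and its signals in BOKU were 675 and 816 with siIGF2R against 2623 and 2970 with siCtrl. In SKG-I they were 216 and 214 with siIGF2R, against 867 and 927 with siCtrl. No siIGF2R array overlapped the siCtrl arrays of its line, and the level was 26.6% of siCtrl in BOKU and 24.0% in SKG-I. The log2 fold change of MGAT5 was −1.99 (SE 0.21, n = 2 lines, adjusted p = 0.0221, limma). A further probe set of MGAT5 reached only 72.7.

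MGAT4A adds the other branch typical of tri-antennary chains, and its signals in SKG-I were 1202 and 1371 with siIGF2R, against 197 and 204 with siCtrl. In BOKU they were 79.2 and 45.8 with siIGF2R, against 6.32 and 4.71 with siCtrl, all near or under the array medians. The arrays did not overlap in either line, with differences of 3.46 in BOKU and 2.68 in SKG-I, but MGAT4A did not pass the test (log2 fold change 3.07, SE 0.73, adjusted p = 0.0742, limma). With signals under 100 set to 100, the difference in BOKU was 0. MGAT1, which starts the complex chains, MGAT2, which adds the next branch, and MGAT4B, the close relative of MGAT4A, stayed within 0.29 in either line and had adjusted p values of 0.474 or more in limma. MGAT3, which adds the bisecting GlcNAc, was not measured, with a highest signal of 53.6. The median over the 5 measured branching enzymes was 0.03.

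Among the galactosyltransferases and enzymes of chain extension, all 6 genes were measured and 1 rose. B3GNT5, which adds GlcNAc to lactosylceramide and starts the lacto-series glycolipids, had signals of 2325 and 2309 with siIGF2R against 706 and 617 with siCtrl in BOKU. The signals in SKG-I were 2156 and 2115 with siIGF2R, against 738 and 788 with siCtrl. The arrays of the siRNAs did not overlap, and B3GNT5 was 3.51-fold higher in BOKU and 2.80-fold higher in SKG-I. It had a log2 fold change of 1.65 (SE 0.21, n = 2 lines, adjusted p = 0.0261, limma). Its remaining probe sets stayed under the signal minimum and disagreed. The brighter of them reached 276 and differed by −0.46 in BOKU and by −0.44 in SKG-I, and the dimmer reached 194 and differed by 1.38 and 1.93.

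B4GALT4, which adds galactose to GlcNAc on glycolipids and sulfated chains, had signals of 1509 and 1420 with siIGF2R against 690 and 608 with siCtrl in BOKU, and of 2740 and 2285 against 1342 and 1373 in SKG-I. The arrays did not overlap in either line, the differences were 1.18 and 0.88, and the adjusted p of 0.0530 in limma lay just above the threshold (log2 fold change 1.03, SE 0.20). Its other measured probe set had 0.60 and 1.01. B3GNT2, the main enzyme of polylactosamine extension, differed by 0.78 in BOKU and by 0.97 in SKG-I (adjusted p = 0.0775, limma), again with no overlap of arrays. B4GALT1, B4GALT3 and B4GALT5, which add galactose to N-glycans and glycolipids, had differences between −0.01 and 0.43 on their brightest probe sets. The lowest of the 6 log2 fold changes in this group was 0.19 and their median was 0.54.

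**Figure D1:**
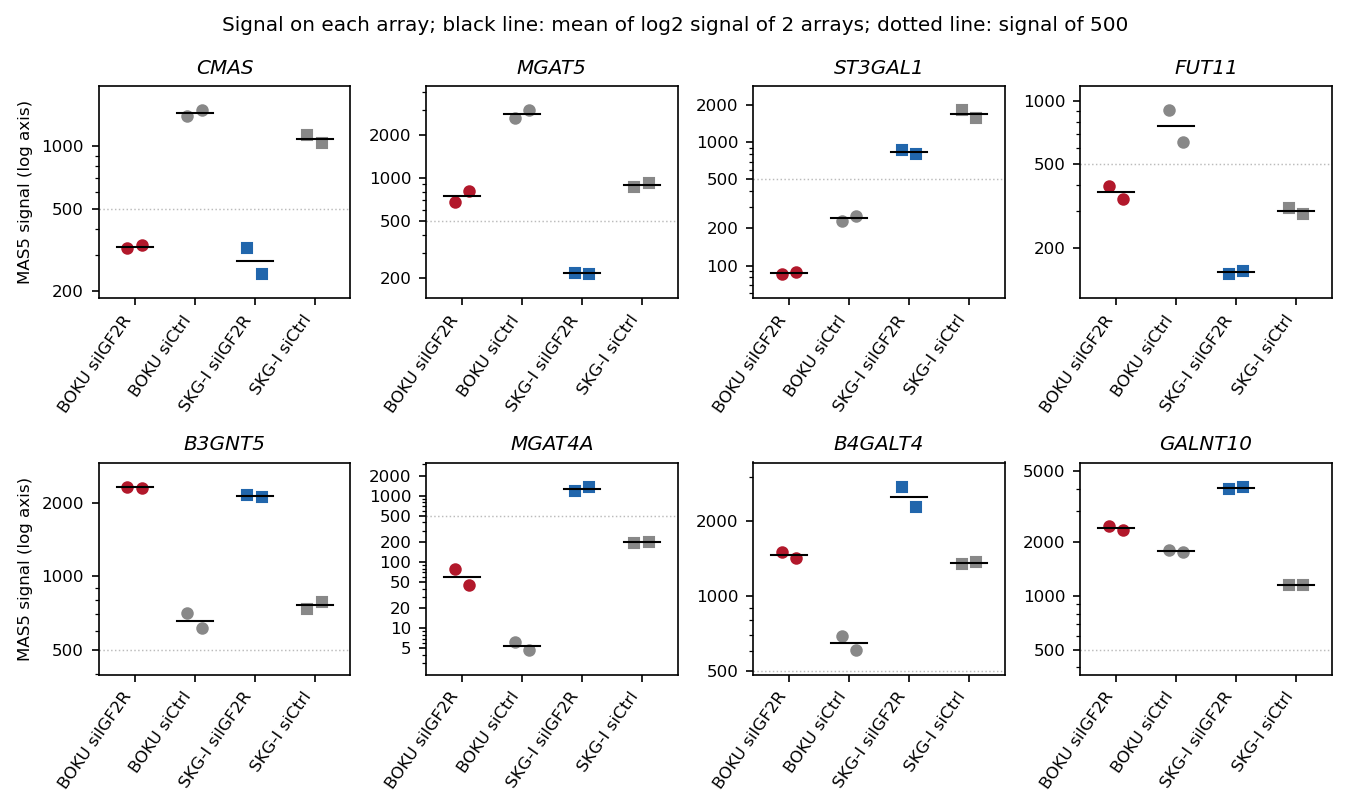
MAS5 signal on each of the 8 arrays (log axis) for 8 members, siIGF2R left of siCtrl, circles for BOKU and squares for SKG-I; black lines are means of the log2 signals of 2 arrays and the dotted line is the signal minimum of 500. CMAS, MGAT5, ST3GAL1 and FUT11 sit lower with siIGF2R in both lines, and B3GNT5, MGAT4A, B4GALT4 and GALNT10 higher, with no overlap of arrays within a line.

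Of 8 sialyltransferases, 4 were measured and 0 were called by limma (1 had an unadjusted p under 0.05). At that threshold 14.4% of all genes were higher and 14.0% lower, which applies to the groups below as well. ST3GAL1, which caps the simplest mucin-type O-glycan core with sialic acid, had signals of 86.0 and 88.3 with siIGF2R against 232 and 253 with siCtrl in BOKU, and of 865 and 802 against 1820 and 1594 in SKG-I. The siIGF2R arrays were lower in both lines without overlap, at 36.0% and 48.9% of siCtrl, with an adjusted p of 0.0646 in limma (log2 fold change −1.25, SE 0.27). With signals under 100 set to 100, the difference in BOKU went from −1.47 to −1.28. A separate measured probe set of ST3GAL1 had differences of −2.13 and −0.94, and a further probe set under the signal minimum had −1.58 and −0.91. ST3GAL4, which caps lactosamine chains, was read only in SKG-I, at 686 and 689 with siIGF2R against 755 and 764 with siCtrl. In BOKU its signals were 19.7 and 63.4 with siIGF2R against 35.9 and 2.84 with siCtrl, all under the array medians and overlapping, so that its difference of 1.81 there has no firm size. ST3GAL2 and ST6GALNAC4, which act on O-glycans and gangliosides, had differences between 0.24 and 0.76 on their brightest probe sets and adjusted p values of 0.262 or more in limma. The 4 sialyltransferases that were not measured, ST3GAL5, ST3GAL6, ST6GAL1 and ST6GALNAC2, had highest signals of 265, 464, 119 and 441.

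O-glycans are started by the GALNT family, of which 5 of 7 genes were measured and 0 were called on the probe set that represents the gene (2 had an unadjusted p under 0.05 in limma). GALNT10, which prefers peptides that already carry GalNAc, had signals of 3990 and 4087 with siIGF2R against 1156 and 1158 with siCtrl in SKG-I. In BOKU they were 2465 and 2362 with siIGF2R, against 1810 and 1759 with siCtrl. The arrays did not overlap in either line, but the differences were of unequal size, 0.44 in BOKU and 1.80 in SKG-I, and the adjusted p was 0.110 in limma. The other measured probe sets of GALNT10 also had the larger difference in SKG-I, with 1.65 and 1.43 against 0.13 and −0.11 in BOKU. In BOKU the arrays of the former overlapped, and those of the latter were lower with siIGF2R. GALNT12, an initiating enzyme of the gut, was read only in BOKU, at 1453 and 1345 with siIGF2R against 3122 and 2914 with siCtrl, and was at 66.9 or less in SKG-I. Its difference in BOKU was −1.11, that of its other measured probe set was −1.09, and its adjusted p over both lines was 0.182 in limma. GALNT1 and GALNT7 had differences of 0.18 and 0.07 in BOKU and of 0.73 and 0.91 in SKG-I.

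The probe sets of GALNT2, a widely expressed initiating enzyme, did not give the same answer. The brightest had signals of 4519 and 2915 with siIGF2R against 5988 and 5377 with siCtrl in BOKU, and overlapping signals of 5234 and 7090 against 6671 and 6300 in SKG-I (adjusted p = 0.270, limma). A dimmer probe set had 812 and 848 with siIGF2R against 1532 and 1644 with siCtrl in BOKU, and 1149 and 1113 against 3234 and 3119 in SKG-I. By that probe set GALNT2 fell (log2 fold change −1.21, adjusted p = 0.0469, limma), and the remaining measured probe set had −1.12 with an adjusted p of 0.0512 in limma. The count of called members uses the brightest probe set and does not include GALNT2. GALNT3 and GALNT6 were not measured, with highest signals of 304 and 100.2.

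The enzymes that act next on O-glycans differed little on their brightest probe sets. C1GALT1, which adds galactose to the first GalNAc, differed by −0.01 in BOKU and by −0.0049 in SKG-I. Its chaperone C1GALT1C1 had −0.02 and −0.24. The dimmer probe sets of C1GALT1 stayed under the signal minimum, with 0.44 and 0.25 in BOKU and 0.58 and 0.60 in SKG-I. GCNT1, which branches this core, was not measured, with a highest signal of 422. The nucleotide sugar transporters also differed little. SLC35A1, which carries CMP-sialic acid, differed by 0.40 in BOKU and by 0.07 in SKG-I, and SLC35A2 and SLC35A3, the carriers of UDP-galactose and UDP-GlcNAc, stayed within 0.17 in either line on their brightest probe sets. A dimmer probe set of SLC35A2 had 0.21 in BOKU and −0.44 in SKG-I, without overlap of arrays in either line. Their adjusted p values were 0.455 or more in limma, which does not show that they were unchanged.

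Fucosyltransferases were represented by FUT8 and FUT11. FUT8, which adds the core fucose of N-glycans, had signals of 7851 and 8488 with siIGF2R against 5209 and 5322 with siCtrl in BOKU, and of 999 and 1161 against 552 and 620 in SKG-I. These arrays did not overlap, with differences of 0.63 and 0.88 and an adjusted p of 0.0781 in limma. FUT11, which RefSeq now names POFUT4, a protein O-fucosyltransferase, had signals of 397 and 343 with siIGF2R against 903 and 638 with siCtrl in BOKU. In SKG-I its signals were 151 and 156 with siIGF2R, against 311 and 291 with siCtrl. The siIGF2R arrays were lower in both lines without overlap, with differences of −1.04 and −0.97, and the adjusted p was 0.0989 in limma. The other measured probe set of FUT11 had −0.46 and −0.28. FUT1 and FUT4, which make blood group H and Lewis x structures, were not measured, with highest signals of 439 and 462.

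The mannosidases that trim N-glycans before branching were all measured and 0 were called (1 had an unadjusted p under 0.05 in limma). MAN2A2, Golgi mannosidase IIx, differed by 0.86 in BOKU and by 0.55 in SKG-I (adjusted p = 0.131, limma), with no overlap of arrays. MAN2A1, Golgi mannosidase II, had −0.06 in BOKU, where the arrays overlapped, and 0.80 in SKG-I, where they did not. MAN1A2, another mannosidase of the first trimming step, differed by 0.06 and 0.07 on its brightest probe set, but its other measured probe sets had −0.69 and −0.96 in BOKU, without overlap of arrays, and 0.14 and 0.12 in SKG-I. MAN1A1 was read in BOKU alone, at 1251 and 1266 with siIGF2R against 1094 and 1146 with siCtrl. In SKG-I it had signals of 19.7 and 23.8 with siIGF2R against 1 and 1 with siCtrl, all far under the array medians, so that its difference of 4.44 there rests on signals near the lowest value of the scale.

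**Figure D2:**
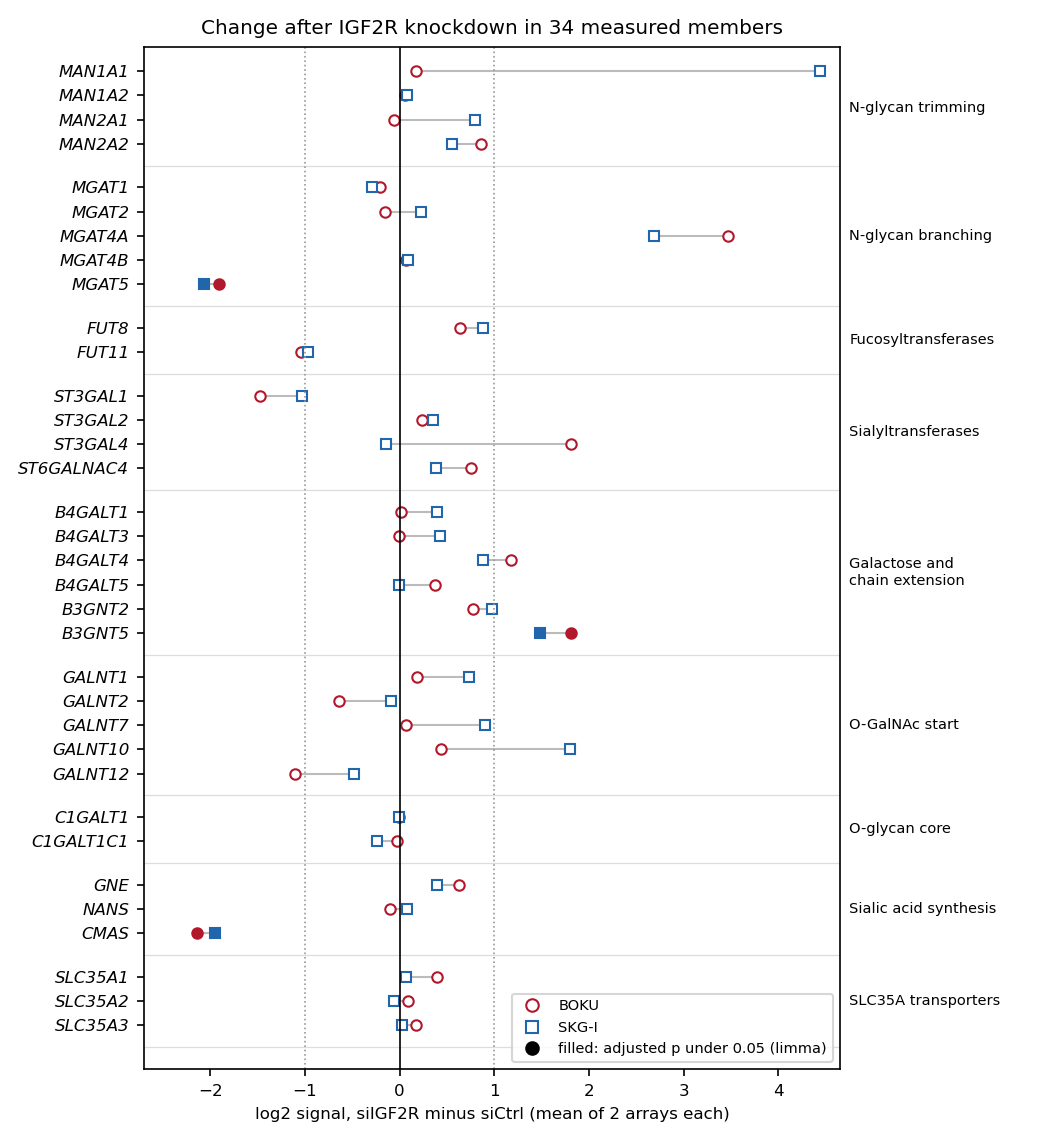
Difference of mean log2 signal, siIGF2R minus siCtrl, of the 34 measured members by role (BOKU, circles; SKG-I, squares), with dotted lines at 2-fold and filled symbols for an adjusted p under 0.05 in limma. CMAS (−2.14 and −1.95), MGAT5 (−1.91 and −2.06) and B3GNT5 (1.81 and 1.49) are the filled genes. The symbols of MAN1A1, GNE and GALNT12 in SKG-I and of MGAT4A and ST3GAL4 in BOKU rest on signals under 100. That of ST3GAL1 in BOKU does so for siIGF2R only.

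Taken line by line, 4 of the 34 members were at least 2-fold higher with siIGF2R in BOKU (all genes, 8.02%) and 5 at least 2-fold lower (all genes, 5.06%). In SKG-I 4 members were at least 2-fold higher (all genes, 8.28%) and 3 at least 2-fold lower (all genes, 6.42%). Those past 2-fold in 1 line only were B4GALT4, ST3GAL4, FUT11 and GALNT12 in BOKU, and GALNT10 and MAN1A1 in SKG-I. By the methods' t-test within each line, which takes duplicate arrays as samples, 2 members passed as higher in both lines (MGAT4A and B3GNT5) and 3 as lower (CMAS, MGAT5 and ST3GAL1). The change had the same sign in both lines for 27 of 34 members, where 71.5% of all genes did. Of the 34 members, 14 stayed within 0.5 on the log2 scale in both lines, 9 reached between 0.5 and 1 in some line, and 11 reached 1 or more. The signal minimum decided which genes could be counted: ST3GAL2 was just inside it with a highest signal of 525, ST6GALNAC4 was the next at 743, and ST3GAL6 and FUT4 were just outside with 464 and 462. On every array, 21 of the 44 members reached 500.

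With siCtrl, 15 of the 34 members differed by at least 2-fold between the lines. Of the 34, 8 were at least 2-fold higher in BOKU than in SKG-I (all genes, 15.7%) and 7 at least 2-fold lower (all genes, 19.0%). These shares were not tested against those of all genes. GNE, GALNT12, MAN1A1, FUT11, ST3GAL4, MAN2A2, ST3GAL1 and MGAT4A reached the signal minimum in 1 line only. Among the 21 members that reached it on every array, 3 were higher in BOKU and 3 lower. The median size of the line difference was 0.98 on the log2 scale for the members and 0.67 for all genes, without a test, since each line was 1 RNA sample. GNE had signals of 1451 and 1439 in BOKU against 38.5 and 21.4 in SKG-I, where it was under the array medians, a difference of 5.65, or 3.85 with signals under 100 set to 100. GALNT12 had 3122 and 2914 in BOKU against 66.9 and 57.2 in SKG-I. MAN1A1 had 1094 and 1146 in BOKU against the lowest value of the scale, 1, in SKG-I. FUT8 had 5209 and 5322 in BOKU against 552 and 620 in SKG-I, a 9.0-fold difference between signals that were all above the minimum. MAN2A1, GALNT7, MGAT5 and FUT11 were also higher in BOKU, with differences of 2.74, 2.05, 1.64 and 1.33.

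Lower in BOKU were ST3GAL4, MGAT4A, MAN2A2, ST3GAL1, B4GALT1, B4GALT4 and MAN1A2. For B4GALT4 and MAN1A2 this rests on the brightest probe set, at −1.07 and −1.02, since the other measured probe set of B4GALT4 had −0.37 and those of MAN1A2 had −0.30 and 0.30. ST3GAL4 had 35.9 and 2.84 in BOKU against 755 and 764 in SKG-I, a difference of −6.23, or −2.93 with signals under 100 set to 100. ST3GAL1 had 232 and 253 in BOKU against 1820 and 1594 in SKG-I, and B4GALT1, the main galactosyltransferase of N-glycans, had 966 and 951 against 4213 and 4241. The mannosidase II genes were divided between the lines, with MAN2A1 higher in BOKU by 2.74 and MAN2A2 lower, at −2.87. In branching, MGAT5 was higher in BOKU and MGAT4A lower. MGAT2 at 0.99, ST6GALNAC4 at 0.97 and SLC35A3 at −0.98 were just short of 2-fold on their brightest probe sets, and the dimmer ones of ST6GALNAC4 (1.14 and 1.64) and SLC35A3 (−1.38 and −1.24) were past it, as were those of GALNT10 and B4GALT5. The genes called after IGF2R knockdown other than MGAT5 were close between the lines, CMAS at 0.41 and B3GNT5 at −0.21.

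**Figure D3:**
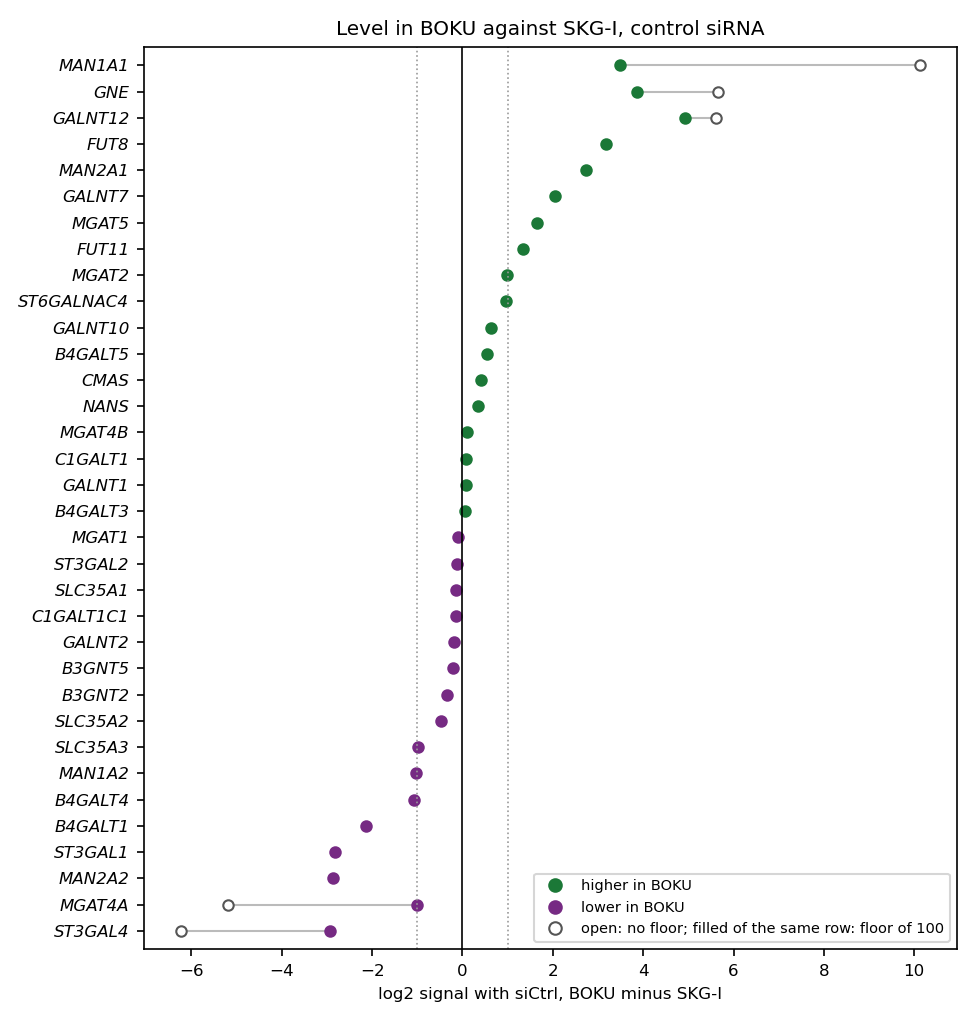
Difference of mean log2 signal with siCtrl, BOKU minus SKG-I, of the 34 measured members in order, with dotted lines at 2-fold; open symbols show the difference as measured where a line had signals under 100, and the filled symbol of that row the value with a floor of 100. GNE is at 5.65 (3.85 with the floor) and ST3GAL4 at −6.23 (−2.93 with the floor), where 1 line had signals under the array medians.

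Other genes of protein glycosylation were counted in 10 lists with 203 genes, of which 184 had a probe set and 109 were measured. Of these 109, 5 rose and 1 fell by limma, all at least 2-fold in both lines, where 2.63% of all genes rose and 2.37% fell. Of the rises, 3 were among the 12 measured genes of other protein O-glycosylation, a share that was not tested. B4GAT1, which primes the sugar chain of dystroglycan, had signals of 1742 and 1772 with siIGF2R against 562 and 512 with siCtrl in BOKU, and of 4617 and 4507 against 1195 and 1397 in SKG-I (log2 fold change 1.77, SE 0.19, adjusted p = 0.0221, limma). POGLUT1 and POGLUT2, which add glucose to the EGF repeats of Notch and other proteins in the endoplasmic reticulum, rose by 1.72 and 1.87 on the log2 scale (adjusted p = 0.0308 and 0.0378, limma). The siIGF2R and siCtrl arrays of these genes did not overlap in either line. In that list 5 of 12 genes had an unadjusted p under 0.05 and a higher signal and 0 a lower one, where 14.4% of all genes were higher and 14.0% lower at that threshold, and the median was 0.56 (all genes, 0.01).

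MOGS, the glucosidase that removes the outermost glucose of a new N-glycan, had signals of 869 and 772 with siIGF2R against 210 and 297 with siCtrl in BOKU, and of 1048 and 1079 against 463 and 297 in SKG-I (log2 fold change 1.62, adjusted p = 0.0321, limma). SLC35D1, which carries UDP-glucuronic acid and UDP-GalNAc into the endoplasmic reticulum, had 1068 and 1112 with siIGF2R against 206 and 232 with siCtrl in BOKU, and 2980 and 3018 against 1072 and 1077 in SKG-I (log2 fold change 1.90, adjusted p = 0.0306, limma). EXTL2, a transferase that acts on the linker of heparan sulfate chains, fell, with 609 and 504 against 1502 and 1961 in BOKU and 956 and 1121 against 2838 and 3077 in SKG-I (log2 fold change −1.57, adjusted p = 0.0256, limma). The 12 genes of the oligosaccharyltransferase, which transfers the whole N-glycan to the new protein, had 0 calls in limma and a median of −0.30. Of them, 5 were lower at an unadjusted p under 0.05 (all genes, 14.0%), a share that was not tested. OSTC, 1 of the 5, had −0.76 (adjusted p = 0.0512, limma). The 18 measured genes of lipid-linked oligosaccharide synthesis had 0 calls and a median of −0.29, with 2 lower at an unadjusted p under 0.05, a share below that of all genes. Of 59 other Golgi glycosyltransferases only 9 were measured, with 0 calls, a median of 0.05 and 0 at an unadjusted p under 0.05. In nucleotide sugar synthesis, 19 measured genes had 0 calls, with 2 higher (all genes, 14.4%) and 3 lower (all genes, 14.0%) at an unadjusted p under 0.05.

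**Figure D4:**
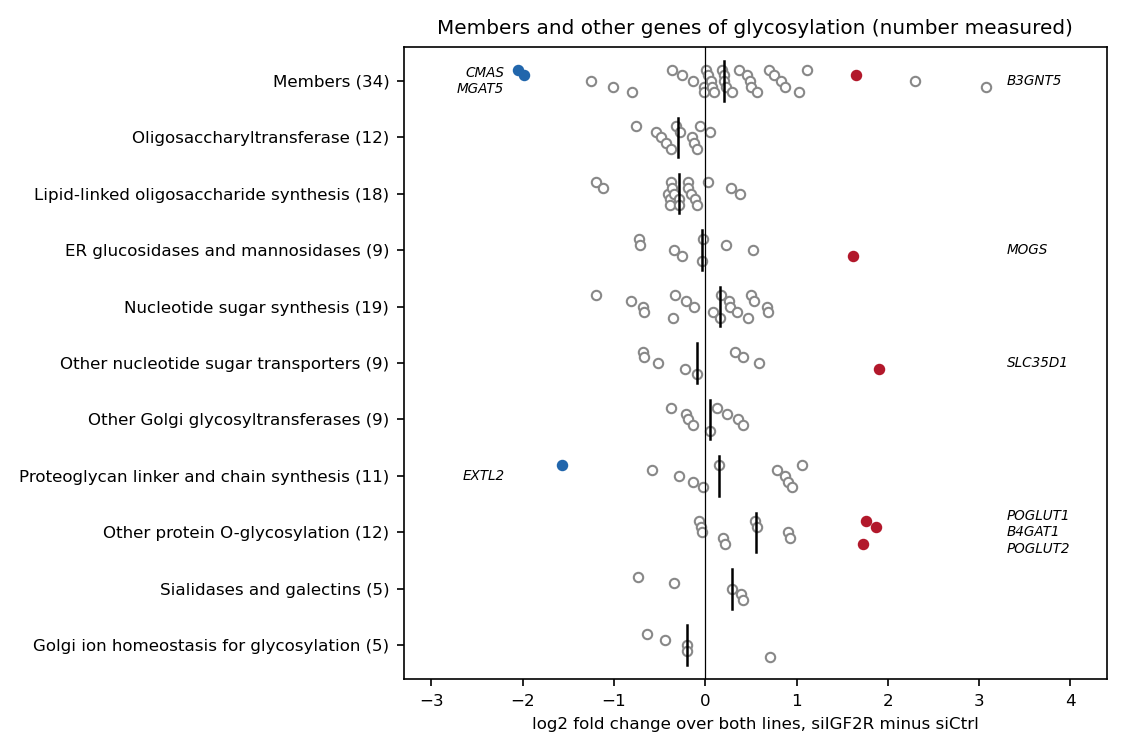
Log2 fold change over both lines, siIGF2R minus siCtrl, of the 34 measured members and the 109 measured genes of 10 other lists of glycosylation; each point is a gene, black bars are medians, and filled points with names passed an adjusted p of 0.05 in limma. The medians lie between −0.30 (oligosaccharyltransferase) and 0.56 (other protein O-glycosylation), and the named genes lie between −2.05 and 1.90.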

How the data were processed

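GeneChip arrays of 4 RNA samples, 2 arrays each, were analyzed. The authors deposited linear intensity values computed by MAS5, background-corrected and scaled, with 1 per array for every probe set; the genome build is not given in the sources used here. All 54675 probe sets were read, 62 control probe sets were removed, and 16517 that reached 500 on any array were tested, after the methods' cut-off. The methods state a mean of 1000 per array, whereas the deposited arrays had trimmed means of 496.6 to 497.3. A signal of 500 here may thus not match 500 on the scale of the methods. Of the 16517 probe sets, 14544 were annotated to 1 gene, 765 to several and 1208 to none. Symbols came from the platform annotation, updated through RefSeq, and all 44 members matched. The brightest probe set by mean signal stood for a gene.

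Signals were put on a log2 scale without a constant, duplicates were averaged, and siIGF2R was compared with siCtrl in limma 3.58.1 (R 4.3.3) with the line as a block, a variance trend, a two-sided test and Benjamini-Hochberg adjustment over all 16517 probe sets. This left 1 residual degree of freedom, to which 4.82 prior degrees were added. The members and lists were chosen with earlier results of these data known. Values on all arrays are given for members called, or at least 2-fold different in a line, and others as ranges or where a description needed them. Other pathway genes are named where limma called them and they were 2-fold different in both lines, and OSTC was chosen after its values were seen. Alternatives covered filter, scaling, floor, variance model, block, probe set, test and single arrays. The number of RNA samples limits the precision.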

Additional observations from a re-analysis of the deposited data

Results flagged for a closer look

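On its brightest probe set MGAT2, which adds the next branch after MGAT1, had differences of opposite sign in the lines, without overlap of arrays. Its signals were 8925 and 9206 with siIGF2R against 10348 and 9824 with siCtrl in BOKU, and 6036 and 5853 with siIGF2R against 5077 and 5110 with siCtrl in SKG-I. The other measured probe set of MGAT2 had −0.17 in BOKU and 0.06 in SKG-I, where its arrays overlapped. A probe set under the signal minimum had the reverse signs, 0.30 in BOKU and −0.27 in SKG-I. On the brightest probe set, the change in BOKU minus the change in SKG-I was −0.38 on the log2 scale. This difference was not tested, since each line and siRNA was 1 RNA sample. Both changes were under the SD of 0.27 to 0.35 between duplicate arrays over all probe sets, which include dim ones. They were above the median difference between duplicate arrays of the measured members, 0.08 to 0.10. Duplicate arrays carried the same RNA, so neither spread covers differences between cultures.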

How the results depend on the processing

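CMAS, MGAT5 and B3GNT5 kept their direction in all alternatives that measured them, and lost their calls without a variance trend (adjusted p = 0.102 each, limma) and without the line as a block (adjusted p = 1, limma); of the other called genes of glycosylation, POGLUT2 also lost its call with 250 on at least 1 array (0.0506), quantile normalization (0.0531) and the mean of its probe sets (0.0531). For members that rose, 1 in the reported fit, the count was 3 without a filter on signal and 2 with 250 on at least 1 array. It was 2 with 500 on every array, 2 with a constant of 64 added and 2 by the methods' t-test within each line. The count was 0 without a variance trend (7 at an unadjusted p under 0.05) and 0 without the line as a block (1 at an unadjusted p under 0.05). With only probe sets that lack an s, x or a suffix it was 0 (3 at an unadjusted p under 0.05). This suffix filter left 18 members and dropped B3GNT5 and CMAS, which had no measured probe set without a suffix. For members that fell, 2 in the reported fit, it was 0 with 500 on every array (0 at an unadjusted p under 0.05), which leaves out CMAS and MGAT5, 0 without a variance trend (5 at an unadjusted p under 0.05), 0 without the line as a block (1 at an unadjusted p under 0.05) and 1 with the suffix filter. The genes added to B3GNT5 in the higher counts were MGAT4A or B4GALT4, and ST3GAL1 joined those that fell, 3 in all, with the constant of 64 and by the methods' t-test.

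With arrays as separate samples, which treats duplicates of the same RNA as independent, 11 members rose and 6 fell, and with the replicate block 10 rose and 6 fell. The numbers mark duplicate arrays and do not pair samples: same-numbered arrays had deviations that correlated at −0.006 to 0.13. Leaving out each array in turn gave 1 to 4 members that rose and 2 to 3 that fell, with the highest count of 4 (MGAT4A, B4GALT4, B3GNT2 and B3GNT5) without siIGF2R replicate 2 of BOKU, 3 without siCtrl replicate 1 of BOKU, and 2 without siCtrl replicate 2 or siIGF2R replicate 2 of SKG-I.

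The 2 members at least 2-fold higher in both lines became 1 with 500 on every array, 1 with a floor of 100, 1 with the constant of 64, 1 with the suffix filter, 5 at 1.5-fold and 1 at 3-fold, and the 3 that were at least 2-fold lower became 0 with 500 on every array. Between the lines, the 8 members higher in BOKU became 13 without a filter, 3 with 500 on every array and 5 with the suffix filter, and the 7 lower became 3 with 500 on every array. ST3GAL4 changed sign, with −0.072 at a floor of 100 and from −0.082 to 1.75 on leaving out each array, the lowest without siCtrl replicate 2 of BOKU. Scaling to a mean of 1000 was chosen after seeing the data and moved no count by over 1.5 times. It kept the measured probe sets of the reported fit, and the arrays already had trimmed means of 496.6 to 497.3. Little could therefore move, and the effect of scaling on the signal minimum was not tested. The causes were not tested.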
